A study of Mus musculus with 3 samples.

Results

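Splenic red pulp macrophage genes are described here as 29 genes, found by name in a table of 27088 genes from B cells sorted from mouse spleen. The list was given by gene name and was drawn up with earlier results of this table already known, its expression values included, so all values of the members are descriptions. It also holds genes that mark other splenic macrophages (Marco, Timd4, Siglec1) and genes shared with further myeloid cells (Lyz2, Cd68, Cd14, Sirpa). Red pulp macrophages line the blood spaces of the spleen, where they clear aged red cells and recycle their iron. The transcription factor Spi-C is needed for their development, and they carry the surface proteins F4/80, VCAM-1 and the integrin alpha D chain. Marginal zone macrophages with MARCO and TIM-4, and metallophilic macrophages with sialoadhesin (Siglec1), lie next to them at the border of the white pulp.

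Female BALB/c mice, aged 6 weeks at the start and 13 weeks by the label of the RNA samples, formed a healthy Control group, a PBS group and a SJMHE1 group. The PBS and SJMHE1 groups shared the induction of allergic rhinitis, in which 10 μg of ovalbumin (OVA) with 2 mg of Al(OH)3 was given into the abdomen and 100 μg of OVA was later given into the nose. From the first sensitization on, and so before the nasal challenge began, the PBS group was given PBS under the skin at intervals, whereas the SJMHE1 group received 10 μg of SJMHE1, a peptide from the worm Schistosoma japonicum, emulsified in incomplete Freund's adjuvant. The peptide and the incomplete Freund's adjuvant cannot be told apart, since the PBS group did not receive this adjuvant. Splenic B cells were isolated by flow cytometry on day 36, and RNA from the mice of each group was pooled before 1 library was made. No replicate therefore stands behind any difference between the PBS and SJMHE1 groups, and no p-value is given. The Control library was not analysed here.

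Below, "under PBS" and "under SJMHE1" refer to these single libraries, whose total counts were 48267168 and 51280237. The unit FPKM gives the fragments of a gene scaled by its length and by the depth of the library, so that levels of different genes can be compared. Each interval below is a 95% interval that covers counting error only. In bulk RNA, fewer cells of a type and less RNA per cell cannot be told apart.

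The macrophage genes did not differ in one direction between the libraries. The genes of the C1q complex, the lectin Fcna, the secreted protein Cd5l and the receptor Cd14 were higher under SJMHE1, by 1.55-fold to 3.55-fold. In contrast, Lyz2, Cd68, Marco, Siglec1, Timd4 and Vsig4 were higher under PBS. Of 29 members, 18 had a higher and 10 a lower FPKM under SJMHE1, and Vsig4 was listed at 0 there. Counting intervals of the log2 FPKM ratio lay above 0 for 10 members, below 0 for 10 members and across 0 for 9 members. The 10 members below 0 include Vsig4; among the 28 members above 0 in both libraries, the intervals of 10 lay above 0 and those of 9 below 0. Over all 20426 genes above 0 in both libraries, 23.6% had an interval above 0 and 28.6% had one below 0.

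A log2 FPKM ratio past 1 in either direction, which is more than 2-fold, served as the threshold. Among the 28 members above 0 in both libraries, 5 were past it upward, or 17.9%, beside 6.69% of all genes above 0 in both. Downward, 4 members were past it, or 14.3%, beside 9.88% of all these genes. After genes that stayed below an FPKM of 1 in both libraries were set aside, 16 members were left, of which 5 were past the threshold upward and 1 downward. Among the 12433 genes that passed this filter, 2.43% were past it upward and 3.57% downward. Since the members were chosen with these values known, and the filter keeps a gene through the library where it is high, nothing is read from these shares. The median log2 ratio was 0.15 over the 28 members and -0.02 over all genes above 0 in both libraries.

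**Figure D1:**
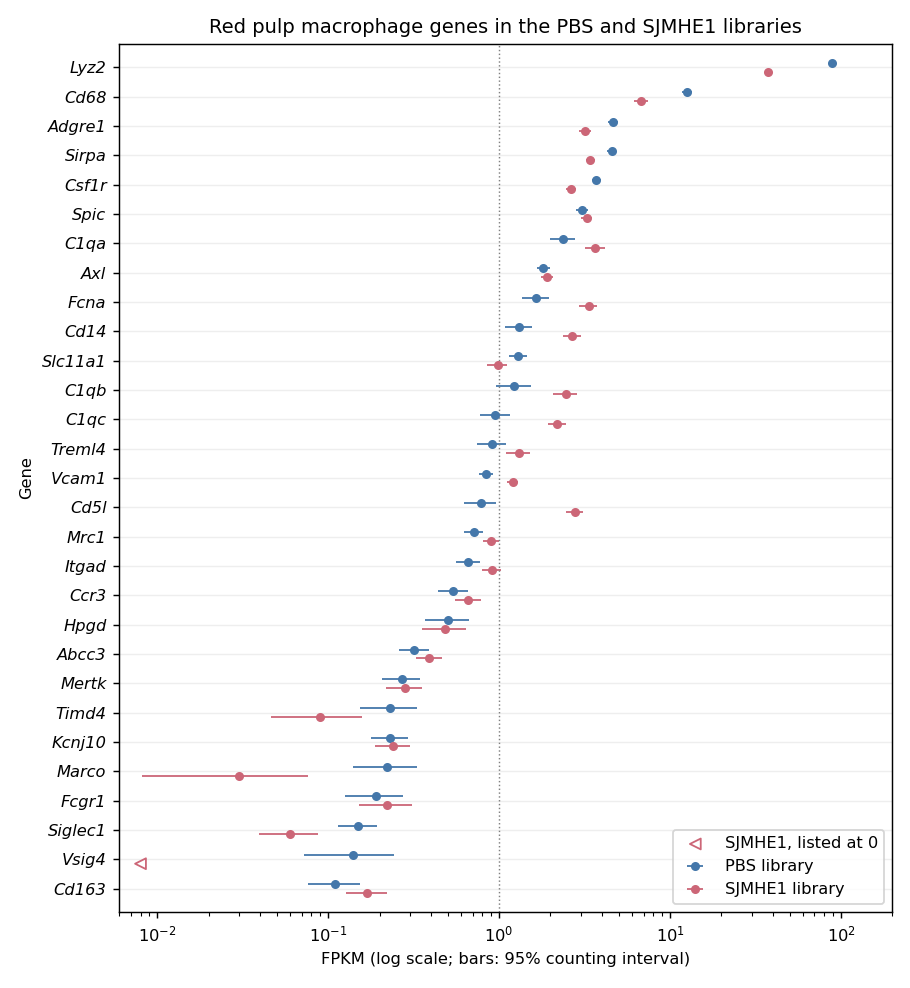
FPKM of the 29 members (log scale) under PBS (blue) and under SJMHE1 (red), with 95% counting intervals and a dotted line at an FPKM of 1. Lyz2 and Cd68 stand above the other members in both libraries, and Vsig4 is listed at 0 under SJMHE1.

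Promoter sequences are shown for C1qb and C1qc, neighbours on chromosome 4 that were higher together, for Cd5l, the member with the highest ratio, and for Lyz2, the most abundant member. They come from RefSeq (build GRCm38.p6), read 5′ to 3′ on the strand of the gene, without bases that lie inside the gene in GENCODE M21. RefSeq promoters were found for 20 of the 29 members. The letters GAGGAAGT, the core of the sites of PU.1 and Spi-C, were searched on both strands of windows from 250 bases before to 50 bases after each start. Among 32851 promoters, 3.20% held them, and among the 20 members only C1qc did. Capitals mark this match, which lies on the opposite strand and begins 195 bases before the RefSeq start. A match is a description of letters, and no match says only that these letters are not in the window.
C1qb, chr4:136886201-136886450, minus strand: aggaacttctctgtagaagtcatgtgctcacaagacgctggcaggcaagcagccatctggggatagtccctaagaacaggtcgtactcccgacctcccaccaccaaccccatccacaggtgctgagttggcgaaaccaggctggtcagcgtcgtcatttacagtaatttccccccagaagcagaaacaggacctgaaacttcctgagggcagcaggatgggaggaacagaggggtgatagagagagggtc
C1qc, chr4:136893066-136893164, minus strand: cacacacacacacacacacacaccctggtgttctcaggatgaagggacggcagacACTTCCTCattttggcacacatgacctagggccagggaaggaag
Cd5l, chr3:87357631-87357880, plus strand: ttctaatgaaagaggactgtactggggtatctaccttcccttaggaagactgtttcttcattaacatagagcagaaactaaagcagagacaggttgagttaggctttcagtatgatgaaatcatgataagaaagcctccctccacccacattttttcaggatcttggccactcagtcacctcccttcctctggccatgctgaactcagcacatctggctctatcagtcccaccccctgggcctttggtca
Lyz2, chr10:117282322-117282522, minus strand: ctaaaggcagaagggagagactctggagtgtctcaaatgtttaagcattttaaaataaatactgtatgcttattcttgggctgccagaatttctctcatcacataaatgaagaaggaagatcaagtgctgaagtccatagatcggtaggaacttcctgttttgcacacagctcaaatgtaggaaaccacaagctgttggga

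Itgad and Vcam1 are the adhesion genes of the list. Itgad, which encodes the integrin alpha D chain, had an FPKM of 0.66 under PBS (165 counts) and 0.91 under SJMHE1 (240 counts). Its log2 ratio was 0.46, with an interval from 0.17 to 0.75. Vcam1, whose product binds integrins and marks red pulp macrophages, had an FPKM of 0.84 and 1.2 in the same order (410 and 617 counts), with a log2 ratio of 0.51 (interval 0.33 to 0.69). Both genes were thus modestly higher under SJMHE1 and near an FPKM of 1. Of the windows of 50 bases in Itgad, 13.5% also occur in other genes, more of them in its neighbour Itgax than in any other gene, so its level is uncertain. Itgax, the integrin chain CD11c, had an FPKM of 3.23 and 1.61, with a log2 ratio whose interval ran from -1.17 to -0.84.

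The transcription factor and the growth factor receptor of the lineage differed from each other. Spic, which encodes Spi-C and is also known from B cells, had an FPKM of 3.06 under PBS and 3.25 under SJMHE1 (646 and 726 counts), and the interval of its log2 ratio of 0.09 included 0. The receptor gene Csf1r, on which macrophage survival depends, had an FPKM of 3.71 and 2.63 (1178 and 882 counts). Its log2 ratio of -0.50 had an interval from -0.63 to -0.37. In GENCODE M21, exons of Csf1r overlap those of Hmgxb3 on the opposite strand. By the coordinates deposited with the counts the genes do not overlap, since Csf1r ends at 61131134 and Hmgxb3 starts at 61131277. The strand setting of the counting is not given in the sources used here. Hmgxb3 itself had a log2 ratio of 0.19.

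The C1q genes encode the 3 chains of the first component of the classical complement pathway, which macrophages secrete. They lie side by side on the minus strand of chromosome 4 in GRCm38, C1qb from 136880129 to 136886187, C1qc from 136889804 to 136893065 and C1qa from 136895917 to 136898803, each with 3 exon blocks in GENCODE M21. C1qa had an FPKM of 2.36 under PBS and 3.66 under SJMHE1 (135 and 222 counts). C1qb had an FPKM of 1.22 and 2.45 (73 and 155 counts), and C1qc had 0.95 and 2.19 (102 and 247 counts). All 3 chains were higher under SJMHE1, with log2 ratios of 0.63 (interval 0.32 to 0.96), 1.01 (0.59 to 1.43) and 1.20 (0.86 to 1.54) for C1qa, C1qb and C1qc. The FPKM ratio of C1qa to C1qc was 2.48 under PBS and 1.67 under SJMHE1, and that of C1qa to C1qb was 1.93 and 1.49, with no test of either difference. Their summed FPKM was 4.53 under PBS and 8.3 under SJMHE1, and C1qa was the most abundant chain per length in each.

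Fcna, a lectin of the ficolin family that starts the lectin pathway of complement, lay in the range of the C1q chains. Its FPKM was 1.64 under PBS and 3.34 under SJMHE1 (124 and 267 counts), a log2 ratio of 1.03 (interval 0.71 to 1.34). The opposite-strand gene Fcnaos overlaps its exons and held 0 and 2 counts. Vsig4, a complement receptor of tissue macrophages, ran the other way. It had 12 counts under PBS and 0 under SJMHE1, where a count of 0 allows up to 3 counts. The counting interval of its log2 ratio, which also takes in the error of the 12 counts, had an upper limit of -1.56. The deposited annotation places C1qa, C1qb, C1qc and Vsig4 in the KEGG complement pathway, which holds 0.251% of all genes in the table.

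**Figure D2:**
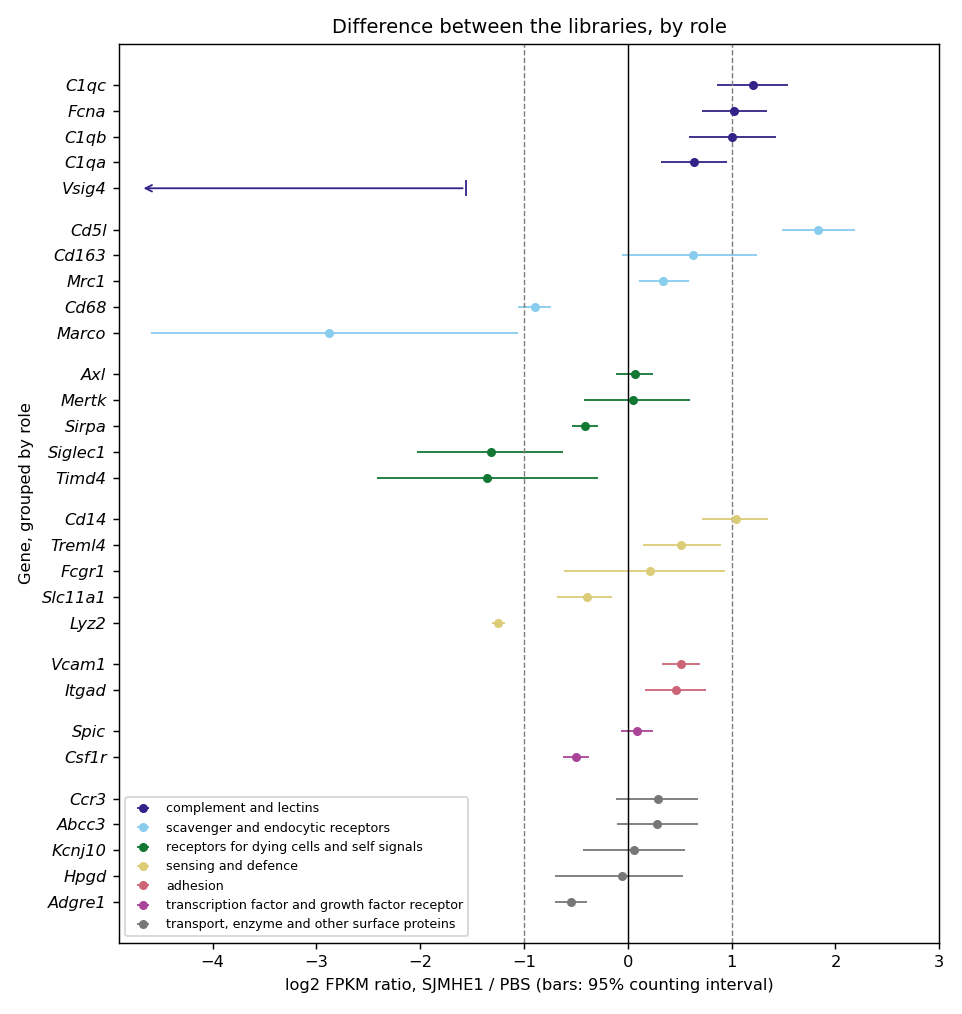
log2 FPKM ratio of each member, SJMHE1 to PBS, with its 95% counting interval, grouped and coloured by role, with dashed lines at -1 and 1. C1qa, C1qb, C1qc, Fcna, Cd5l and Cd14 lie to the right, Lyz2, Marco, Siglec1 and Timd4 lie to the left, and the arrow shows the interval of Vsig4, which was listed at 0 under SJMHE1.

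Among the genes of the scavenger and endocytic receptors, Cd5l had the highest ratio, while Cd68 had the highest level in each library. Cd5l encodes a secreted scavenger protein of tissue macrophages and lies on chromosome 3 from 87357881 to 87371073. Its FPKM was 0.78 under PBS and 2.77 under SJMHE1 (87 and 328 counts), a 3.55-fold difference. The log2 ratio of 1.83 had an interval from 1.49 to 2.19, and Cd5l was the only member whose interval lay wholly above the threshold. The mannose receptor gene Mrc1 had an FPKM of 0.71 and 0.9 (249 and 336 counts; log2 ratio 0.34, interval 0.11 to 0.59). The haemoglobin receptor gene Cd163 had an FPKM of 0.11 and 0.17 (34 and 54 counts), and the interval of its log2 ratio of 0.63 ran from -0.06 to 1.25.

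Marco and Cd68 were lower under SJMHE1. Marco, the scavenger receptor of marginal zone macrophages, had 23 counts under PBS and 4 under SJMHE1, with an FPKM of 0.22 and 0.03. At this level the 2 decimals of the FPKM matter: the log2 ratio was -2.87 from the FPKM and -2.61 from the counts on the same scale, with an interval from -4.60 to -1.06. Cd68, a lysosomal glycoprotein of macrophages and other phagocytes, had an FPKM of 12.61 and 6.77 (871 and 495 counts). Its log2 ratio was -0.90 (interval -1.06 to -0.74), short of the threshold.

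Among the receptors for dying cells and self signals, 3 of 5 were lower in the SJMHE1 library with an interval below 0. No interval lay above 0. Over all genes above 0 in both libraries, 28.6% had an interval below 0 and 23.6% one above 0. With only 5 genes, nothing is read from this count. Axl and Mertk, kinases that bind dying cells through bridging proteins, had intervals that included 0, with an FPKM of 1.82 and 1.91 for Axl (506 and 561 counts) and of 0.27 and 0.28 for Mertk (64 and 72 counts). Timd4, which binds phosphatidylserine on dying cells, had 28 counts under PBS and 12 under SJMHE1 (log2 ratio -1.35, interval -2.41 to -0.28). Siglec1, the sialic acid receptor of metallophilic macrophages, had 61 and 26 counts (log2 ratio -1.32, interval -2.03 to -0.63). Both lay well below an FPKM of 1 in each library. Sirpa, which receives the CD47 signal that spares living cells, had an FPKM of 4.55 and 3.42 (1229 and 978 counts; log2 ratio -0.41, interval -0.53 to -0.29). The values of Timd4 and Siglec1, like those of Marco and Vsig4, rest on at most 61 counts in a library.

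Cd14 and Lyz2, which act in sensing and killing bacteria, differed in opposite directions. Cd14, the co-receptor for lipopolysaccharide, had an FPKM of 1.3 under PBS and 2.68 under SJMHE1 (125 and 270 counts), a log2 ratio of 1.04 (interval 0.72 to 1.35). Lyz2, the lysozyme of macrophages, monocytes and neutrophils, had an FPKM of 88.79 and 37.4 (6414 and 2860 counts). It was 2.37-fold lower under SJMHE1, with a log2 ratio of -1.25 (interval -1.31 to -1.18). Lyz2 ranked 457 among the 27088 genes by FPKM under PBS and 1045 under SJMHE1. Of its windows of 50 bases, 15.4% also occur in other genes, more of them in the neighbouring copy Lyz1 than in any other gene, so that the counting could have split reads. Lyz1 held 37 counts under PBS and 0 under SJMHE1, and the counting interval of its log2 ratio had an upper limit of -3.34.

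The other genes of this group differed less. Treml4, a receptor of splenic myeloid cells, had an FPKM of 0.91 and 1.3 (101 and 153 counts; log2 ratio 0.51, interval 0.15 to 0.89). Slc11a1, the phagosomal metal transporter NRAMP1, had an FPKM of 1.29 and 0.98 (270 and 214 counts; log2 ratio -0.40, interval -0.68 to -0.15). Fcgr1, the high-affinity receptor for IgG, had an FPKM of 0.19 and 0.22 (28 and 33 counts), and its interval included 0. The deposited annotation puts Cd14, Fcgr1, Marco and Mrc1 in the KEGG phagosome pathway and 10 of the 29 members among the genes of the innate immune response, a term carried by 1.69% of all genes in the table.

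Adgre1 encodes F4/80, the classical macrophage antigen, and had an FPKM of 4.66 under PBS and 3.19 under SJMHE1 (829 and 602 counts). Its log2 ratio of -0.55 had an interval from -0.70 to -0.39. The potassium channel gene Kcnj10, the export pump gene Abcc3, the prostaglandin dehydrogenase gene Hpgd and the chemokine receptor gene Ccr3 had FPKM values between 0.23 and 0.66. Kcnj10 had 68 counts under PBS and 75 under SJMHE1, Abcc3 had 101 and 130, Hpgd had 47 in each, and Ccr3, which eosinophils also carry, had 98 and 126. Their log2 ratios lay between -0.06 and 0.29, and all 4 intervals included 0. At 47 to 130 counts in a library, a small difference in these genes was not detectable.

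By level, the order of the members was much the same in both libraries. Spearman's rho of the FPKM over the 29 members was 0.94, as a description across genes that share their libraries. Lyz2 came first and Cd68 second in each. Adgre1, Sirpa, Csf1r and Spic followed under PBS, where the counting intervals of Adgre1 and Sirpa overlapped. In the SJMHE1 library the third place was taken by C1qa, whose counting interval overlapped those of its followers Sirpa, Fcna, Spic and Adgre1. An FPKM of at least 1 was reached by 12 of the 29 members under PBS and 15 under SJMHE1. Among all 27088 genes, 11992 reached it under PBS and 11845 under SJMHE1. In both libraries, 5 members had fewer than 50 counts.

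**Figure D3:**
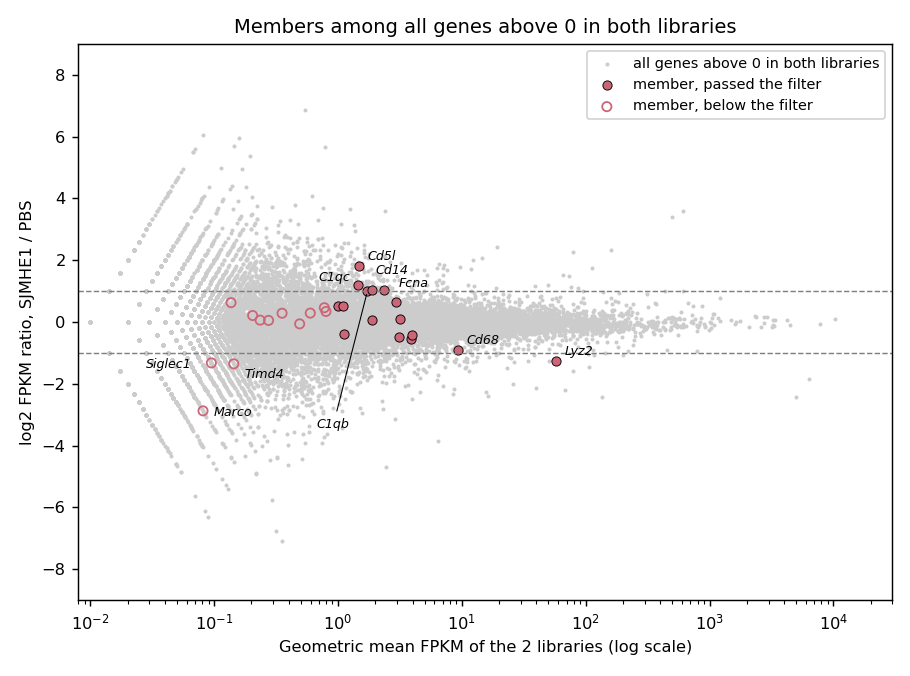
log2 FPKM ratio, SJMHE1 to PBS, against the geometric mean FPKM (log scale) for the 20426 genes above 0 in both libraries (grey), with the 28 members above 0 in both in red, filled where they passed the filter. Lyz2 and Cd68 lie below most genes of similar level, and the remaining members lie at low levels, where the ratios of all genes spread widely.

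The summed FPKM of all 29 members was 134.76 under PBS and 83.57 under SJMHE1. Lyz2 made up 65.9% and 44.8% of this sum. Without Lyz2, a setting added after the values were seen, the sums were 45.97 and 46.17, a log2 ratio of 0.01 in place of -0.69. The sum over the list was thus decided by 1 gene. The members held 0.0292% of the counts under PBS and 0.0209% under SJMHE1.

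Of 28 further macrophage genes, 10 were higher and 18 lower under SJMHE1, with a median log2 ratio of -0.09. Intervals lay above 0 for 6 genes, below 0 for 12 and across 0 for 10. Over all genes above 0 in both libraries, 23.6% had an interval above 0 and 28.6% one below 0, and nothing is read from these counts. The most abundant of them, which B cells and other cells may also express, differed little: the lipid carrier gene Apoe had a log2 ratio of 0.07 (FPKM 132.4 and 138.62), and the lysosomal protease genes Ctsd, Lgmn and Ctsb had ratios of -0.18, 0.02 and -0.06. The transcription factor genes Nr1h3 and Cebpa were among those past the threshold. Nr1h3, the sterol sensor LXR alpha, had 22 and 58 counts (log2 ratio 1.38, interval 0.59 to 2.10). Cebpa, a regulator of myeloid precursors, had 158 and 41 counts (log2 ratio -2.07, interval -2.56 to -1.52). Named after their values were seen, the iron exporter gene Slc40a1 had an FPKM of 1.35 and 1.98 (log2 ratio 0.55, interval 0.42 to 0.70) and the haem oxygenase gene Hmox1 one of 5.53 and 6.54 (log2 ratio 0.24, interval 0.08 to 0.41). The marginal zone macrophage marker Cd209b was at 0 in both libraries.

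Markers of other cell types moved between the libraries as well, and their part in the values of the members was not tested. The 13 B cell genes dominated both libraries, with a summed FPKM of 12589 and 12624 and a median log2 ratio of 0.02. All 11 T cell genes were lower under SJMHE1, with a median log2 ratio of -2.18 (summed FPKM 58.39 and 33.33). Lck held the largest part of that sum (FPKM 27.92 and 25.19, log2 ratio -0.15). The 7 NK cell genes were all lower as well (summed FPKM 14.45 and 6.67). Of 8 dendritic cell genes, 7 had an interval below 0, with Batf3 at 0 under SJMHE1, and the summed FPKM was 8.8 and 3.94. The remaining gene, Zbtb46, was higher under SJMHE1 (207 and 326 counts, log2 ratio 0.56, interval 0.32 to 0.83). Of 7 monocyte genes 6 were lower (197.56 and 162.45), whereas 4 of 10 neutrophil genes were higher and 6 lower (448.67 and 529.08). Lyz2 is also expressed by monocytes and neutrophils. Beside its ratio, the 4 most abundant neutrophil genes S100a9, Ngp, S100a8 and Ltf had log2 ratios of 0.44, -0.32, 0.64 and 0.02. The 4 most abundant monocyte genes Plac8, Ms4a4c, Ly6c2 and Chil3 had ratios of -0.54, 0.33, -0.28 and -0.42. The other monocyte genes Ccr2, Fn1 and F13a1 had ratios of -0.91, -0.77 and -0.12. All 9 erythroid genes were higher under SJMHE1 (153.72 and 201.51), with log2 ratios from 0.19 to 0.76. All 9 heat shock genes were also higher under SJMHE1, with log2 ratios from 0.91 to 3.60 and a summed FPKM of 1085 and 5599.

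**Figure D4:**
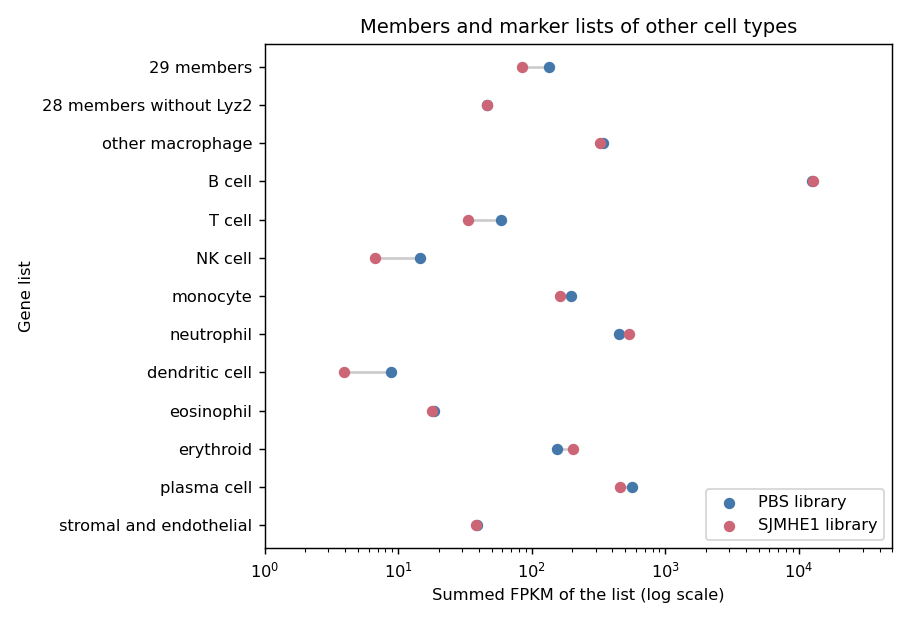
Summed FPKM (log scale) of the members, of the members without Lyz2 and of the marker lists of other cell types, under PBS (blue) and under SJMHE1 (red). The B cell genes stand at 12589 and 12624, and the 28 members without Lyz2 have nearly the same sum in each.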

How the data were processed

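RNA of sorted spleen B cells was measured in 3 pooled libraries, 1 per group. The authors deposited a raw count for each gene beside its FPKM; the deposited FPKM values are rounded to 2 decimals. The submitters' processing notes name mm10, bcl2fastq 2.0, HISAT2, StringTie, DESeq2 and limma; the counting tool and its strand setting are not given in the sources used here. The names of 2 value columns matched no sample, so these columns were not used, and the planned comparisons with Control were not made. All 29 members were found in GENCODE M21, 25 with the same coordinates.

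The log2 ratio of the FPKM, SJMHE1 to PBS, was taken without a pseudocount, and its 95% interval was derived from a Clopper-Pearson interval for the SJMHE1 share of a gene's counts, moved to the FPKM scale. Such intervals, and exact Poisson intervals of single counts in the plot of levels, cover counting error only. With 1 library per group no model could be fitted. Windows of 50 bases were compared among the transcripts of GENCODE M21. Alternative scalings used edgeR 4.0.16 (TMM) and DESeq2 1.42.0 (size factors) in R 4.3.3; all else used Python 3.11.15, numpy 2.4.6, pandas 2.3.3 and scipy 1.17.1, tested on simulated data. The members, their roles and the other lists were chosen with earlier results of these data known. All members were named, and from each other list at most the 4 most abundant genes and those past the threshold; the report names only those a result touches, and some genes that this rule names are not reported here.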

Additional observations from a re-analysis of the deposited data

How the results depend on the processing

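No paired analysis was possible because only 1 library stands for a group and no result comes from a test; the planned comparisons with Control were not run. Upward, 5 members were past the threshold; a pseudocount of 0.1 left 2 and one of 1 left 1. Asking that both libraries reach an FPKM of 1 left 3 of the 11 members compared, beside 101 of 11366 genes. Raising the filter to 5 left 0, but only Lyz2 and Cd68, both lower under SJMHE1, were compared there. This 0 therefore says nothing about the members that were higher. Asking that the whole interval lie past the threshold left 1. C1qb dropped below it when counts were scaled to equal sums, whereas TMM, DESeq2 size factors, centring and leaving the 50 most abundant genes out of the sums moved no member across it. Adding a pseudocount pulls low genes towards a ratio of 0 by construction. Downward, 4 members were past the threshold with no filter in place of 1; of these 4, Siglec1 and Timd4 dropped out at a pseudocount of 0.1 and Marco as well at a pseudocount of 1, which left Lyz2. The median over the 16 filtered members was 0.30 and reversed to -1.07 at a filter of 5, where 2 members, Lyz2 and Cd68, were left. Over all genes the counts were 302 upward and 444 downward. They became 100 and 146 at a pseudocount of 1, 1367 and 2018 with no filter, 101 and 151 when both libraries had to reach 1, and 52 and 93 at a filter of 5. Of 196 member ratios recomputed under other scalings and pseudocounts, 0 changed sign and 189 stayed inside their counting interval. The lack of sign changes says little. A pseudocount cannot change the sign of a ratio, and the other scalings shifted all genes by a median of at most 0.045 in either direction. Depth limits the members with few counts, 5 of which had fewer than 50 in both libraries.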

Other observations

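Gene lists that stand outside the macrophage genes differed between the libraries as follows. Of 10 immediate early genes, 7 were higher and 3 lower, with a median log2 ratio of 0.10, and their summed FPKM was 3979 and 4637. The 8 housekeeping genes had a median log2 ratio of 0.11. Of 6 plasma cell genes, 1 was higher and 5 were lower, with a summed FPKM of 559 and 459. Of 5 eosinophil genes, which include the member Ccr3, 3 were higher and 2 lower (summed FPKM 18.37 and 18.0); the peroxidase gene Epx was past the threshold upward with 54 and 141 counts, and Siglecf downward with 44 and 4 counts. Of 10 stromal and endothelial genes, 2 were at 0 under PBS and 3 under SJMHE1. The chemokine gene Cxcl13 was past the threshold upward with a log2 ratio of 2.22, from only 4 and 19 counts (interval 0.58 to 4.18). The marginal zone macrophage list of 4 genes holds the members Marco and Siglec1 beside Nr1h3 and Cd209b, with a summed FPKM of 0.52 and 0.48.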
